A study of Mus musculus with 12 samples.

Results

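The genes described here are the Ifi200 family genes Ifi203, Ifi204, Ifi207, Ifi209, Ifi211, Ifi213 and Mndal, the related DNA sensor gene Aim2, and the cytosolic DNA sensing genes Cgas and Trex1. These 10 genes were chosen by name after results of the same libraries were known, among them their genotype differences, so their own values below are a description and carry no p-value. Of the 10 genes, 9 had a row in both tables, out of 22896 genes in the untreated table, 21437 in the TNF table and 24465 in either, and all 9 passed the filter on low values in both. Trex1 was not analysed here.

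The RNA came from bone marrow-derived macrophages (BMDMs), which are macrophages grown in culture from mouse bone marrow. Macrophages of the genotype Lyz2cre carry Cre recombinase at Lyz2, a gene active in myeloid cells, and are the controls; Klf6fl/fl:Lyz2cre macrophages carry the same Cre and a floxed Klf6, the gene of a zinc finger transcription factor, and are called Klf6-deleted below. All 4 groups therefore share the Cre, and each group had 3 libraries: Lyz2cre untreated, Klf6-deleted untreated, Lyz2cre with TNF and Klf6-deleted with TNF, where TNF, an inflammatory cytokine, was given at 10 ng/ml for 6 h. The labels give no age and leave unsaid whether a group's libraries derive from different mice, so each p-value reflects only how far these particular libraries spread, which may be technical. The comparisons ask how loss of Klf6 in macrophages changes RNA levels at rest and after TNF.

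Libraries held 16925666 to 23386570 reads. Klf6 itself was 7101 ± 269 normalized counts in Klf6-deleted and 10118 ± 174 in Lyz2cre macrophages without TNF (SD, n = 3 each), and 4161 ± 43.4 against 7447 ± 255 with TNF (SD, n = 3 each). The groups did not overlap, but Klf6 reads remained in every Klf6-deleted library, and which exons the floxed allele removes is not given in the sources used here. Markers that define macrophages were present in every library, with a summed share of 0.622% to 0.650% of normalized counts in Klf6-deleted and 1.07% in Lyz2cre libraries without TNF, and 0.785% to 0.794% against 0.926% to 0.943% with TNF. Stromal cell markers also differed by genotype: all 9 tested of 11 were higher in Klf6-deleted macrophages without TNF and 8 of 9 with TNF, and their sum was 0.297% to 0.316% against 0.0151% to 0.0186% without TNF and 0.0208% to 0.0242% against 0.0028% to 0.0045% with TNF. Of the 7 macrophage markers, 1 was higher and 6 were lower in Klf6-deleted macrophages without TNF, and 2 were higher and 5 lower with TNF. Of 7 monocyte markers, 6 were higher and 1 lower without TNF, and 1 was higher and 2 lower with TNF. All 3 tested endothelial markers were higher without TNF and both tested ones were lower with TNF. Of 4 tested granulocyte markers 2 were higher and 2 lower without TNF, and 1 of 2 was lower with TNF, while no dendritic cell or lymphocyte marker was abundant enough to test. The part of these other cells in the results below was not tested, and in bulk RNA fewer cells of a type and less RNA per cell cannot be told apart.

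Many but not all Ifi200 proteins, also called PYHIN proteins, pair a pyrin domain, which binds other pyrin domains, with HIN domains, which bind DNA. AIM2 uses them to assemble an inflammasome on DNA in the cytosol, which activates caspase-1. cGAS binds the same kind of DNA and makes cGAMP, a small messenger that activates STING and, through the kinase TBK1 and the factor IRF3, the transcription of type I interferon; TREX1 degrades cytosolic DNA. Interferon in turn acts through factors such as STAT2 and IRF9 on target genes that carry an interferon-stimulated response element (ISRE), and many Ifi200 genes are known as interferon-induced.

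On GRCm38 (GENCODE annotation), 8 of the 9 measured genes lie in one stretch of chromosome 1 from 173350879 to 174031810, a span of 681 kb with 21 annotated genes, 13 of them protein coding. In chromosome order the family genes there are Aim2, Ifi206, Ifi214, Ifi213, Ifi209, Ifi208, Ifi207, Ifi204, Ifi203-ps (a pseudogene), Mndal, Ifi211, Ifi203, Ifi202b and Ifi205. Cgas, the remaining measured gene, lies on chromosome 9, from 78430526 to 78443237 on the minus strand. Several of these genes are near copies: 72.8% of the 50-base windows in the exons of Ifi211 also occur in another gene, mostly Ifi205, and the share was 33.7% for Ifi209, mostly Ifi214, 20.02% for Ifi204, 19.6% for Mndal, 15.6% for Ifi213, 12.2% for Ifi203 and 7.29% for Ifi207. For Cgas it was 0.696% and for Aim2 0.628%. Mndal and Ifi203 also share 37 exon bases. How the counting assigned reads that match more than one gene is not given in the sources used here, so levels of the individual chromosome 1 genes other than Aim2, and of Ifi211 most of all, are uncertain.

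The promoters of the locus are shown because most of the measured genes lie in it. In the RefSeq promoter table (GRCm38.p6, from 250 bases before to 50 bases after each start), 8 of the 9 measured genes have an entry, and 5 of these 8 hold the ISRE letters GAAANNGAAA on either strand, as do 4 of the 5 other locus genes with an entry. The same letters occur in 3.44% of all 32851 promoters of that length, and in 3.99% of the 27025 genes these belong to, counted by gene as here. The stretches below run 5′ to 3′ on the strand of the gene, with the match in capitals, and 1 match per gene is shown. Ifi206, Ifi214, Ifi208 and Ifi205 are locus neighbours outside the 10 genes.
Ifi206, chr1:173491339-173491368, minus strand: tgtctctgagGAAATCGAAAgctatgaacc
Ifi214, chr1:173536017-173536046, minus strand: agtctctgagGAAATCGAAAgcgatgcact
Ifi213, chr1:173599326-173599355, minus strand: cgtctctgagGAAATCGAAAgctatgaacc
Ifi208, chr1:173673597-173673626, plus strand: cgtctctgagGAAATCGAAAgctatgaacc
Ifi207, chr1:173741831-173741860, minus strand: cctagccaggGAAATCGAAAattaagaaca
Mndal, chr1:173880204-173880233, minus strand: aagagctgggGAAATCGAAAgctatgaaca
Ifi203, chr1:173942508-173942537, minus strand: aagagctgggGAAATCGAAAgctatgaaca
Ifi211, chr1:173913064-173913093, minus strand: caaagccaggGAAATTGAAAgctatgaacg
Ifi205, chr1:174031870-174031899, minus strand: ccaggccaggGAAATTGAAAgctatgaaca
Of these 9 genes, 7 carry GAAATCGAAA and 2, Ifi211 and Ifi205, carry GAAATTGAAA. All 30 bases are the same in Ifi213 and Ifi208, and again in Mndal and Ifi203. No ISRE match lay in the windows of Aim2, Ifi209 and Cgas. Other motifs were searched on both strands, and the share of all genes with a promoter entry is in brackets. The interferon-responsive motif GAS, as TTCNNNGAA, matched none of the 8 (9.55%), and the NF-kappa-B motif matched Ifi209 (7.81%). CCACCC, the CACCC box that Krüppel-like factors are known to bind, matched Mndal and Cgas (34.0%). A match of letters is a description of the sequence and not evidence of a bound site.

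Without TNF, most of the genes were slightly to moderately higher in Klf6-deleted macrophages. Normalized counts below are read counts divided by 1 size factor per library, and the log2 difference is Klf6-deleted minus Lyz2cre on the log2(normalized count + 1) scale, with its standard error. A gene was called where limma's Benjamini-Hochberg adjusted p over all genes was below 0.05. By that rule 6 of the 9 were higher, 1 was lower and 2 were not called, with a median log2 difference of 0.22, while 27.6% of all 12715 genes tested were called higher and 29.3% lower. Since the genes were chosen with this comparison known, nothing is read from the count. Scaled to total reads, 6 were higher and 0 lower, and the differences of Ifi207 and Mndal changed sign, to 0.06 and 0.03, without a call.

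Among the Ifi200 genes, Ifi213 differed most. It measured 705, 768 and 684 normalized counts in the Klf6-deleted libraries and 361, 358 and 390.5 in the Lyz2cre libraries, a log2 difference of 0.96 ± 0.072 (SE). Every Klf6-deleted library lay above every Lyz2cre library. Ifi211 measured 1465, 1409 and 1506 against 798, 930 and 931 (0.72 ± 0.061), again with no overlap. Ifi204, whose product p204 has been studied as a macrophage DNA sensor upstream of STING, measured 5132, 5308 and 5116 against 3909, 3880 and 4104 (0.39 ± 0.037). Ifi209 measured 2061, 2000 and 2012 against 1792, 1726 and 1683 (0.22 ± 0.043). Both were higher in every Klf6-deleted library. Ifi203 went the other way, with 1605, 1654 and 1560 against 1720, 1806 and 1770 (-0.14 ± 0.045) and no overlap; scaled to total reads its difference was -0.0032 and not called, and the call was also lost without Klf6-deleted untreated replicate 3 (-0.12) or Lyz2cre untreated replicate 2 (-0.12). Ifi207 (7204, 7671 and 7166 against 7613, 7741 and 7817) and Mndal (1911, 2039 and 1833 against 2160, 1927 and 2124) overlapped between genotypes and were not called. Ifi207 was called lower without Klf6-deleted untreated replicate 2 (-0.10), and Mndal without that library (-0.14) or Lyz2cre untreated replicate 2 (-0.15).

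Of the other 2 sensors, Cgas was separated by genotype and Aim2 was not. Cgas, the gene of the cGAMP synthase, measured 395, 413 and 404 in Klf6-deleted and 251, 237 and 302 in Lyz2cre libraries (0.62 ± 0.095), with no overlap. Aim2 measured 764, 756 and 710 against 753, 633 and 569 (0.20 ± 0.082), and Lyz2cre replicate 1 lay within the Klf6-deleted range. The Aim2 call was lost with DESeq2, without the filter on low values, and without Klf6-deleted untreated replicate 1 (0.18) or 2 (0.19) or Lyz2cre untreated replicate 2 (0.18) or 3 (0.11).

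With TNF, all 9 genes were lower in Klf6-deleted macrophages, and the genotypes overlapped for none of them. The median log2 difference was -2.11, and 9 of 9 were called lower, where 30.8% of all 11717 genes tested were called lower and 26.5% higher. The median over all genes was -0.01. These shares are of calls, and the share of all genes whose genotypes did not overlap was not computed. As without TNF, the genes were chosen with this comparison known and nothing is read from either count. All 9 were also called lower in each of the 13 alternative settings tried.

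**Figure D1:**
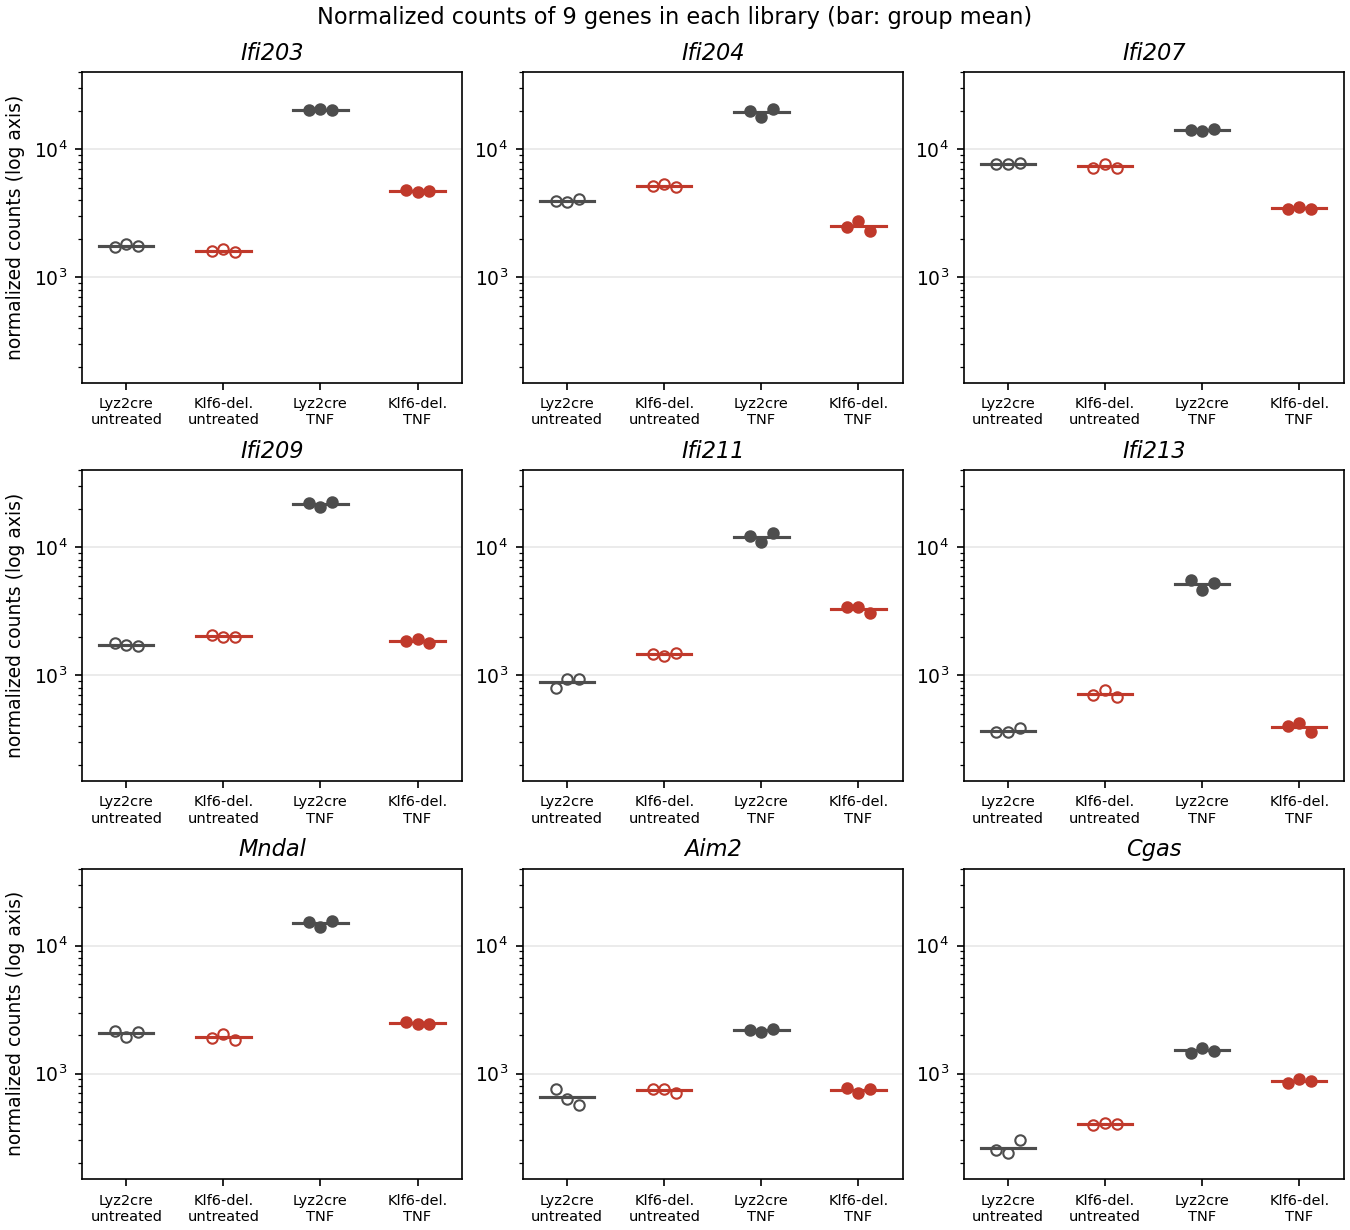
Normalized counts (log axis) of the 9 measured genes in every library, by group; open points are untreated, filled points had TNF, grey is Lyz2cre, red is Klf6-deleted, and bars are group means of 3 libraries. The Lyz2cre TNF libraries are the highest group for all 9 genes; the untreated and TNF tables were normalized separately.

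Ifi213 again differed most. It measured 404, 422 and 363 normalized counts in the Klf6-deleted TNF libraries and 5521, 4621 and 5320 in the Lyz2cre TNF libraries, so the Lyz2cre mean was 13.01-fold higher (log2 difference -3.70 ± 0.072). Ifi209 measured 1861, 1936 and 1799 against 22288, 20682 and 22511, an 11.7-fold difference (-3.55 ± 0.046). In both, the lowest Lyz2cre library was far above the highest Klf6-deleted one. Ifi204 measured 2484, 2733 and 2296 against 20057, 17751 and 20714, 7.79-fold (-2.96 ± 0.063). Mndal, the gene of a myeloid nuclear differentiation antigen-like protein, measured 2517, 2451 and 2423 against 15200, 14033 and 15522, 6.06-fold (-2.60 ± 0.045). Mndal thus differed with TNF although it overlapped between genotypes without TNF.

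Ifi203 measured 4790, 4652 and 4686 in Klf6-deleted and 20310, 20600 and 20135 in Lyz2cre TNF libraries, 4.32-fold (-2.11 ± 0.038). Ifi207 measured 3433, 3515 and 3423 against 14187, 13832 and 14324, 4.08-fold (-2.03 ± 0.039). Ifi211 measured 3448, 3430 and 3093 against 12244, 11056 and 13008, 3.64-fold (-1.86 ± 0.058). These 3 genes had smaller differences than Ifi213, Ifi209 and Ifi204, and again no libraries overlapped. The inflammasome sensor Aim2 measured 768, 710 and 764 against 2174, 2106 and 2231, 2.91-fold (-1.54 ± 0.057). Cgas had the smallest difference, 844, 901 and 868 against 1456, 1587 and 1512, 1.74-fold (-0.80 ± 0.058). The order of size put the 7 Ifi200 genes above Aim2 and Aim2 above Cgas.

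The genotype difference was more negative with TNF than without it for all 9 genes. In limma's fit of all 4 groups, which takes the difference of the within-table differences, 25.7% of the 11425 genes tested were called more negative with TNF and 26.5% more positive. The change was -4.65 (log2) for Ifi213, -3.77 for Ifi209, -3.35 for Ifi204, -2.59 for Ifi211, -2.49 for Mndal, -1.98 for Ifi203, -1.96 for Ifi207, -1.74 for Aim2 and -1.42 for Cgas. Ifi204, Ifi209, Ifi211, Ifi213 and Cgas were higher in every Klf6-deleted library without TNF and lower in every one with TNF.

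The same rows can be read as the response to TNF within a genotype, but only as a description, since the tables with and without TNF were normalized separately and no test was made across them. In Lyz2cre macrophages all 9 genes were higher with TNF, in every library. The ratio of means ran from 1.83 for Ifi207 to 13.9 for Ifi213, with 13.7 for Ifi211, 12.6 for Ifi209, 11.5 for Ifi203, 7.21 for Mndal, 5.77 for Cgas, 4.92 for Ifi204 and 3.33 for Aim2. In Klf6-deleted macrophages the genes split. Ifi203 was 2.93-fold, Ifi211 2.28-fold, Cgas 2.16-fold and Mndal 1.28-fold higher with TNF. Ifi207 was 2.13-fold, Ifi204 2.07-fold, Ifi213 1.81-fold and Ifi209 1.09-fold lower with TNF, and Aim2 overlapped. Scaled to total reads, Ifi209 overlapped as well, leaving 3 lower. How many of all genes separate in this way was not computed for either genotype, so nothing is read from these counts.

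**Figure D2:**
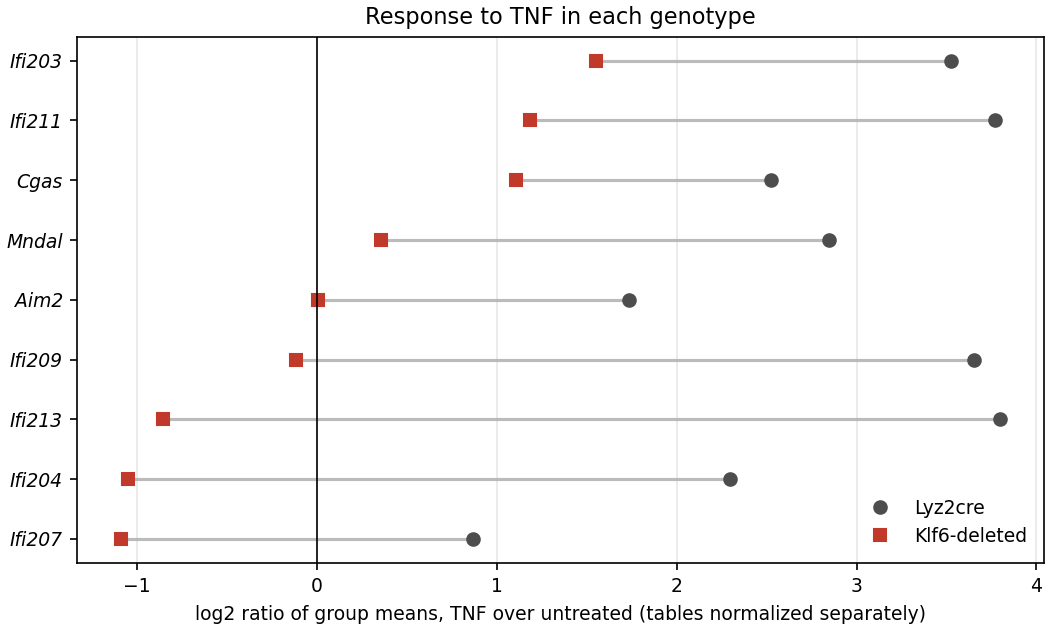
Log2 ratio of the TNF mean to the untreated mean for each of the 9 genes in Lyz2cre (circles) and Klf6-deleted (squares) macrophages; each point is a ratio of means of 3 libraries from separately normalized tables. All 9 circles lie right of 0, while the squares fall on both sides of it.

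As a share of all normalized counts, the 9 genes together were 0.0935% ± 0.0015 in Lyz2cre untreated and 0.541% ± 0.014 in Lyz2cre TNF libraries (SD, n = 3 each). In Klf6-deleted libraries the share was 0.113% ± 0.0033 without and 0.124% ± 0.0034 with TNF (SD, n = 3 each). Adding the 6 other locus genes to the 8 chromosome 1 genes gave 0.0949% and 0.632% for Lyz2cre, and 0.117% and 0.138% for Klf6-deleted.

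Per kilobase of exon, the order of the levels also changed. Without TNF, Ifi207 led in both genotypes, at 2257 ± 30.1 normalized counts per kilobase in Lyz2cre and 2147 ± 82.3 in Klf6-deleted libraries (SD, n = 3 each), followed by Ifi204. The lowest were Ifi213 at 54.1 ± 2.60 and Cgas at 63.8 ± 8.27 in Lyz2cre macrophages (SD, n = 3 each), whose ranges did not overlap, whereas in Klf6-deleted macrophages these 2 overlapped. With TNF, Ifi211 led in both genotypes, at 6780 ± 551 in Lyz2cre and 1862 ± 112 in Klf6-deleted libraries (SD, n = 3 each), subject to the reads it may share with Ifi205. In Lyz2cre TNF libraries Ifi211 overlapped Ifi209, which followed it, and Ifi207 overlapped Mndal further down. In Klf6-deleted TNF libraries Ifi207 came next, Ifi204, Ifi203 and Mndal overlapped each neighbour in that order, Aim2 overlapped Cgas, and Ifi213 was lowest.

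The 6 other genes of the locus were not among the 10 genes and could be tested where abundant enough, though their choice was also made with earlier results known. Most also share 50-base windows with other genes. The share was 26.3% for Ifi203-ps, mostly Ifi203, 20.8% for Ifi208, mostly Ifi213, and 18.6% for Ifi205, mostly Ifi211. It was 25.6% for Ifi206, 14.6% for Ifi214, mostly Ifi209, and 0 for Ifi202b. Their values may therefore include reads of the 10 genes. Ifi202b was too low to test in either table, at no more than 2.98 normalized counts in any library. Without TNF, 3 of the 4 tested were higher in Klf6-deleted macrophages and 1 did not pass. With TNF, all 5 tested were lower. Ifi208 measured 272, 236 and 218 normalized counts in Klf6-deleted against 134, 121 and 141 in Lyz2cre libraries without TNF, and 185, 143 and 178 against 3217, 2505 and 3312 with TNF; its log2 differences were 0.87 ± 0.12 (limma adjusted p = 6.6e-06) and -4.15 ± 0.11 (limma adjusted p = 1.2e-14). Ifi206 showed the same exchange, 1.35 ± 0.082 without TNF (limma adjusted p = 1.0e-10) and -3.64 ± 0.074 with TNF (limma adjusted p = 6.3e-16). With TNF, Ifi214 measured 8.41, 13.6 and 18.5 in Klf6-deleted against 172, 161 and 169 in Lyz2cre libraries (-3.60 ± 0.26). It passed the filter on low values through the Lyz2cre libraries, where it was high. Its call, counted above, is therefore no test of the difference, and no p-value is given. The pseudogene Ifi203-ps differed by -3.72 ± 0.14 with TNF (limma adjusted p = 1.1e-12). Without TNF, Ifi214 was too low to test and Ifi203-ps did not pass (0.15 ± 0.15, limma adjusted p = 0.42). Ifi205 was low without TNF, at 45.01, 55.8 and 41.4 in Klf6-deleted and 8.75, 21.8 and 20.8 in Lyz2cre libraries. With TNF it measured 2683, 2541 and 2448 against 11881, 11482 and 11755 (-2.20 ± 0.044, limma adjusted p = 5.5e-16).

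**Figure D3:**
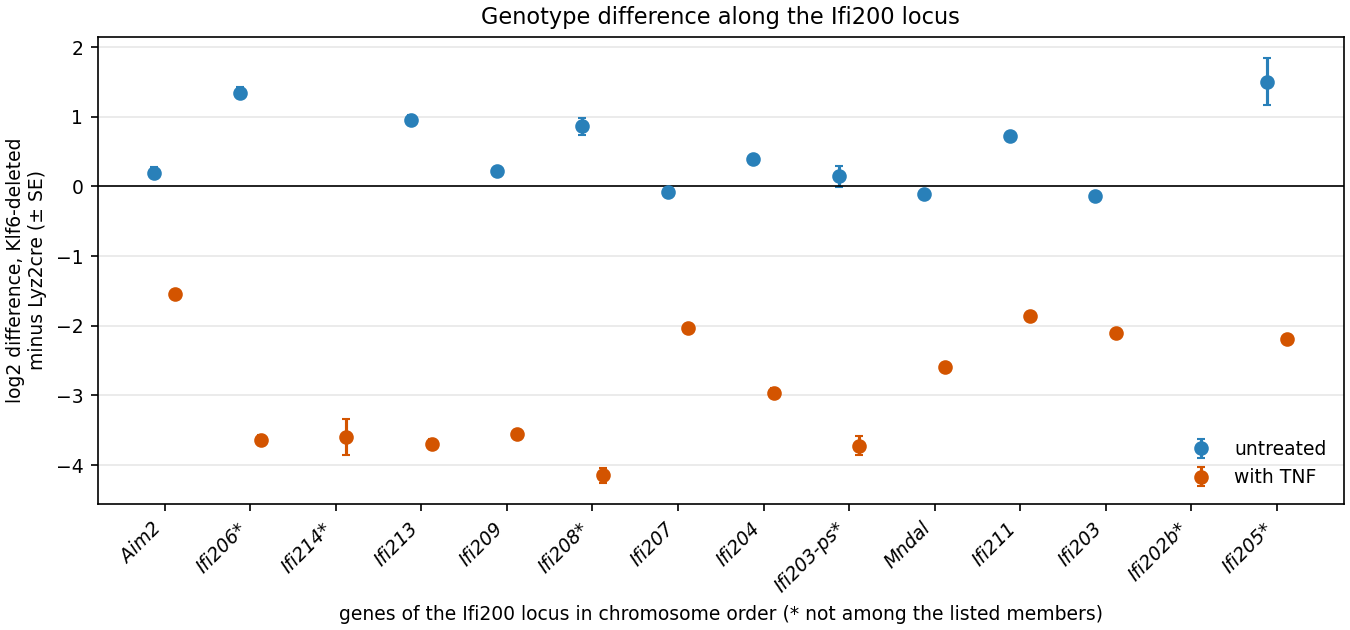
Log2 genotype difference (Klf6-deleted minus Lyz2cre, ± SE, 3 libraries a group) of the Ifi200 locus genes in chromosome order, untreated in blue and with TNF in orange; genes with no point were too low to test. Every TNF point lies below 0, from -1.54 for Aim2 to -4.15 for Ifi208.

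Around these genes, 73 genes of DNA sensing and its neighbouring steps were listed in 8 groups. Without TNF, 69 were tested, of which 19 were higher and 27 lower in Klf6-deleted macrophages, beside 27.6% higher and 29.3% lower of all genes. With TNF, 70 were tested, of which 14 were higher and 36 lower, beside 26.5% and 30.8% of all genes. The genotype difference changed with TNF for 43 of 68, more negative for 29 and more positive for 14, beside 25.7% and 26.5% of all genes. The counts of the single lists below are to be read beside these shares. The split depends on the scaling: scaled to total reads, the median of all genes moved by 0.13 (log2) without and 0.33 with TNF, the 73 genes gave 25 higher and 17 lower without TNF, 32 higher and 30 lower with TNF, and 30 more positive and 23 more negative for the change. Over all genes that scaling gave 40.3% higher and 18.9% lower without TNF and 60.1% higher and 14.6% lower with TNF.

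**Figure D4:**
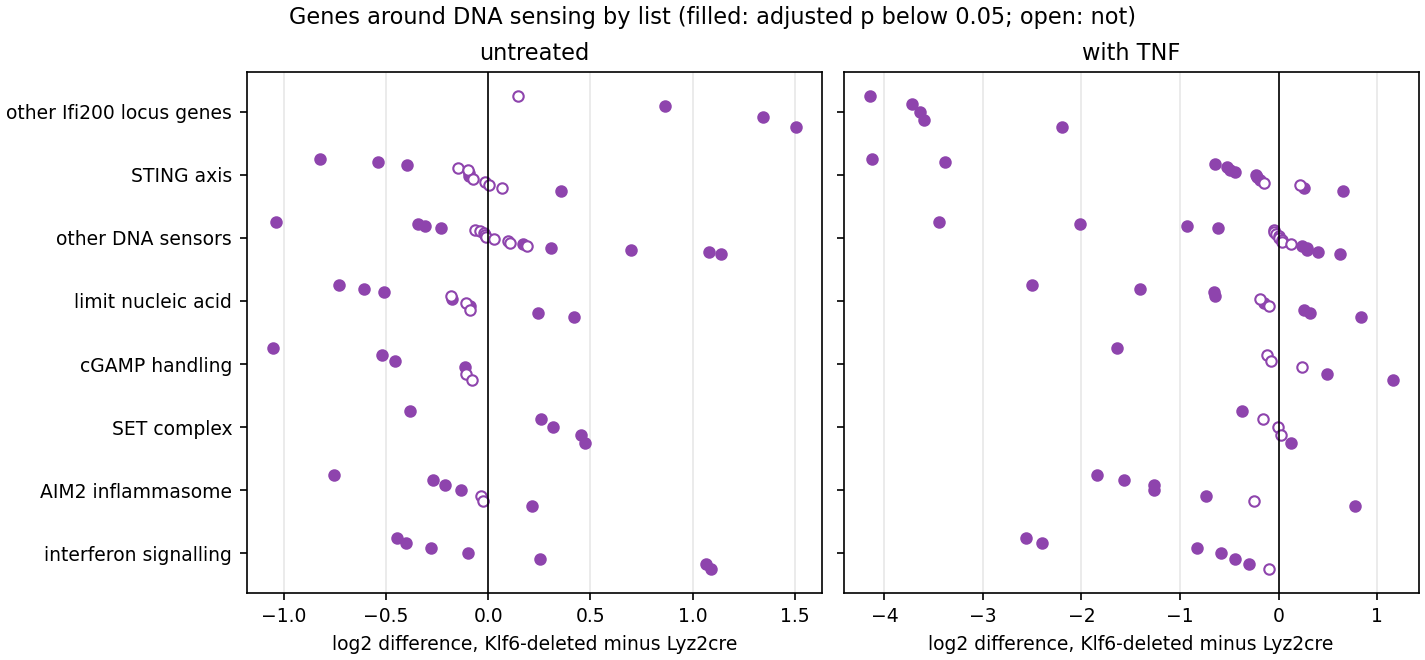
Log2 genotype difference (Klf6-deleted minus Lyz2cre) of each tested gene in the 8 lists, without TNF on the left and with TNF on the right; filled points passed the test and open points did not. With TNF all 5 tested locus genes and 6 of 7 interferon signalling genes are filled points left of 0, while the other DNA sensors lie on both sides of 0.

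In the STING axis, downstream of cGAS, 5 of 12 tested genes were lower, 1 higher and 6 not called without TNF, and 9 of 13 were lower, 2 higher and 2 not called with TNF. With total-read scaling, 3 were lower and 3 higher without TNF, and 6 lower and 5 higher with TNF. Sting1, the cGAMP receptor, measured 734, 720 and 810 normalized counts against 735, 758 and 766 without TNF, where the genotypes overlapped, and 380, 365 and 378 against 552, 496 and 564 with TNF (-0.52 ± 0.081, limma adjusted p = 4.6e-05). The kinase gene Tbk1 differed by -0.10 ± 0.038 without TNF (limma adjusted p = 0.040), a call lost and turned to 0.04 when scaled to total reads, and by -0.45 ± 0.044 with TNF (limma adjusted p = 2.3e-07). Its relative Ikbke was lower in both conditions, by -0.82 ± 0.054 (limma adjusted p = 2.9e-10) and -0.49 ± 0.049 (limma adjusted p = 2.3e-07). Irf3, the transcription factor of the axis, was not called without TNF (-0.07 ± 0.056) and was slightly higher in Klf6-deleted macrophages with TNF (0.26 ± 0.068, limma adjusted p = 0.0038). Scaled to total reads, the differences with TNF were -0.19 for Sting1, -0.12 for Tbk1, -0.17 for Ikbke and 0.59 for Irf3, all still called.

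In the same list, Ifnb1 and Usp18 differed far more with TNF. Ifnb1, the interferon beta gene, was listed at 0 in all 3 Lyz2cre untreated libraries and at 1.67, 1.99 and 0 in the Klf6-deleted ones. With TNF it measured 23.9, 25.7 and 28.7 in Lyz2cre and 0.934, 0.909 and 0 in Klf6-deleted libraries. The Klf6-deleted values stand for at most 1 read each, so no fold is given. Ifnb1 passed the filter on low values only through the Lyz2cre TNF libraries, where it was high. Its call, counted above, is therefore no test of the difference, and no p-value is given. Usp18, an interferon-induced inhibitor of interferon receptor signalling, measured 521, 521 and 498.5 against 395, 360 and 452 without TNF (0.36 ± 0.083, limma adjusted p = 0.0012) and 800, 957 and 824 against 9928, 7600 and 9535 with TNF (-3.38 ± 0.085, limma adjusted p = 8.1e-15). Trim56, a ubiquitin ligase, was not called without TNF and was lower with TNF (-0.65 ± 0.056, limma adjusted p = 5.4e-08).

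Some interferon signalling genes were also higher without and lower with TNF. Without TNF 3 of 7 were higher and 4 lower, and with TNF 6 of 7 were lower and 1 was not called; scaled to total reads, 3 were higher and 3 lower without TNF, and 1 higher and 5 lower with TNF. Stat2 measured 4618, 4706 and 4467 in Klf6-deleted and 2228, 2111 and 2250 in Lyz2cre libraries without TNF, and 3009, 3208 and 3140 against 17629, 14696 and 17137 with TNF. Its log2 differences were 1.07 ± 0.040 (limma adjusted p = 1.3e-13) and -2.40 ± 0.058 (limma adjusted p = 4.7e-15). Irf9, the gene of its DNA-binding partner, differed by 0.25 ± 0.047 (limma adjusted p = 1.7e-04) and -0.58 ± 0.047 (limma adjusted p = 2.1e-08). Both were thus higher without TNF and lower with TNF, as were Ifi204, Ifi209, Ifi211, Ifi213 and Cgas by their values.

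Calls among other nucleic acid sensors were near the shares over all genes. Of 18 tested without TNF, 5 were higher, 4 lower and 9 not called, and of 17 tested with TNF, 5 were higher, 4 lower and 8 not called. With scaling to total reads, 9 were higher and 3 lower without TNF, and 13 higher and 4 lower with TNF. Zbp1, a sensor of Z-form nucleic acid, measured 1056, 1100 and 1124 against 560, 437 and 564 without TNF (1.08 ± 0.081, limma adjusted p = 1.9e-09) and 1214, 1263 and 1139 against 13965, 11862 and 13783 with TNF (-3.45 ± 0.060, limma adjusted p = 1.2e-16). Tlr9, the endosomal DNA receptor, was lower in both conditions, by -0.23 ± 0.062 (limma adjusted p = 0.0039) and -2.02 ± 0.14 (limma adjusted p = 2.7e-09); scaled to total reads the first was -0.10 and not called. Unc93b1, which carries that receptor to endosomes, was lower by -1.04 ± 0.034 (limma adjusted p = 1.55e-14) and -0.93 ± 0.047 (limma adjusted p = 5.8e-11). Others were higher. Xrcc5, the gene of the Ku80 subunit of the Ku DNA end-binding complex, measured 72.5, 68.8 and 72.3 against 42.7, 16.9 and 43.8 without TNF (1.14 ± 0.29, limma adjusted p = 0.0029) and was too low to test with TNF. Zcchc3, a cofactor of cGAS, was higher in both conditions, by 0.70 ± 0.13 (limma adjusted p = 1.1e-04) and 0.63 ± 0.16 (limma adjusted p = 0.0037).

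Genes that limit nucleic acid, the group TREX1 belongs to by function, were 2 higher, 5 lower and 3 not called of 10 tested without TNF, and 3 higher, 5 lower and 2 not called of 10 with TNF. On total-read scaling they were 2 higher and 3 lower without TNF, and 5 higher and 4 lower with TNF. Samhd1, a dNTP hydrolase, measured 4912, 5261 and 4986 in Klf6-deleted and 30339, 25498 and 30482 in Lyz2cre TNF libraries (-2.51 ± 0.059, limma adjusted p = 3.2e-15). Without TNF its difference was -0.09 ± 0.036 (limma adjusted p = 0.037), which scaled to total reads was 0.04 and not called. Adar, an editor of double-stranded RNA, was higher without TNF (0.42 ± 0.041, limma adjusted p = 8.2e-08) and lower with TNF (-1.40 ± 0.048, limma adjusted p = 3.7e-13). Dnase2a, the lysosomal DNase, went the opposite way, at -0.18 ± 0.038 without TNF (limma adjusted p = 6.6e-04), not called when scaled to total reads, and 0.83 ± 0.048 with TNF (limma adjusted p = 3.1e-10). Pld4, an endolysosomal exonuclease, was lower in both, by -0.73 ± 0.034 (limma adjusted p = 2.3e-12) and -0.66 ± 0.047 (limma adjusted p = 4.6e-09).

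Genes that break down or carry cGAMP were lower for 4 of 6 without TNF, with 0 higher, and with TNF 2 were higher, 1 lower and 3 not called; scaled to total reads, 3 were lower without TNF, and 4 higher and 1 lower with TNF. Enpp1, the enzyme that hydrolyses extracellular cGAMP, differed by -0.52 ± 0.068 without TNF (limma adjusted p = 2.8e-06) and by 1.16 ± 0.22 with TNF (limma adjusted p = 3.4e-04). P2rx7, an ATP-gated channel, differed by -1.05 ± 0.044 (limma adjusted p = 4.5e-13) and 0.50 ± 0.076 (limma adjusted p = 3.6e-05). These 2 genes were thus lower without TNF and higher with it. In the SET complex, which TREX1 is part of, 4 of 5 genes were higher and 1 lower without TNF, and with TNF 1 was higher, 1 lower and 3 not called, or 3 higher and 0 lower when scaled to total reads. Hmgb2, a DNA-bending protein gene, differed by 0.45 ± 0.060 (limma adjusted p = 3.65e-06) and -0.37 ± 0.059 (limma adjusted p = 5.8e-05), the latter being -0.04 and not called when scaled to total reads; Set itself was higher in both, by 0.32 ± 0.041 (limma adjusted p = 2.1e-06) and 0.13 ± 0.048 (limma adjusted p = 0.032).

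Downstream of AIM2, 1 of 7 inflammasome genes was higher, 4 lower and 2 not called without TNF, and 1 was higher, 5 lower and 1 not called with TNF; scaled to total reads, 1 was higher and 1 lower without TNF. Casp1, the protease the inflammasome activates, measured 1638, 1989 and 1732 against 1561, 1550 and 1493 without TNF (0.21 ± 0.059, limma adjusted p = 0.0046) and 2294, 2207 and 2062 against 6705, 6027 and 6697 with TNF (-1.56 ± 0.054, limma adjusted p = 3.6e-13). The adaptor gene Pycard was lower without TNF (-0.27 ± 0.071, limma adjusted p = 0.0032), a call lost when scaled to total reads, and was not called with TNF (-0.24 ± 0.11, limma adjusted p = 0.065). Gsdmd, the pore protein gene, was lower without TNF (-0.13 ± 0.042, limma adjusted p = 0.010), again not called when scaled to total reads, and lower with TNF (-1.26 ± 0.062, limma adjusted p = 3.5e-11). Il18, a cytokine that caspase-1 matures, was not called without TNF (-0.03 ± 0.17) and was lower with TNF (-1.84 ± 0.14, limma adjusted p = 7.3e-09).

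Over all 12 libraries, the genes whose profile was most like the mean profile of the 9 genes were Slfn5, Ifit2, Azi2, Trim30d and Zup1, with Pearson's r from 0.998 to 0.999. Gene by gene, the closest other gene was Zfp800 for Ifi203, March5 for Ifi204, Tnfrsf11a for Ifi207, H2-T24 for Ifi209, Cdkn1a for Ifi211, H2-T23 for Ifi213, Cmpk2 for Mndal, Tlr3 for Aim2 (r = 0.991) and Mdm2 for Cgas (r = 0.995). These values describe 12 libraries that fall into 4 groups in 2 separately normalized tables, so they mostly repeat the group means.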

How the data were processed

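Total RNA from 12 BMDM libraries was sequenced after ribosomal RNA removal with a stranded kit, per the labels' protocols. The submitters' processing notes name Cufflinks and the builds GRCm39 and mm10 without roles; no aligner or counter is named there. The deposited values are a signal per Ensembl gene that came out as whole read counts divided by 1 size factor per library (100% of values whole, to within 5.3e-05 reads), from the authors' 2 tables, which were normalized separately. Every value column was mapped to a sample by its title. Symbols came from GENCODE, with 22867 and 21411 identifiers matched; Sting1 is listed there as Tmem173.

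Genes with at least 1 CPM, computed from the recovered reads, in 3 libraries were tested with limma 3.58.1 (trend) on log2(normalized count + 1), within each table, with Benjamini-Hochberg adjustment over all genes and a threshold of 0.05. The change of the genotype difference with TNF was fitted over all 4 groups. On simulated data for the untreated comparison, 94 of 98 genes changed 2-fold, 97 of 97 changed 4-fold and 6 of 12315 unchanged genes were called. The simulation gave all genes the same replicate spread and changed few of them, equally up and down. In these data many more genes were called and calls moved with the scaling, so its rates need not hold here. Alternatives were edgeR 4.0.16 and DESeq2 1.42.0 on the recovered reads, no filter, at least 5 CPM, a pseudocount of 8, scaling to total reads, a replicate block, and each library left out. Replicates differed by more than sampling noise (chi-square per gene 2.27 to 8.66). The genes and lists were chosen with earlier results of these data known. Genes outside the 10 are named by size: up to 4 called genes of each list and table with the largest difference, plus Sting1, Tbk1, Irf3, Ifnb1, Pycard, Casp1 and Samhd1, and those with the most similar profiles. Of the 46 genes this gives, 31 are named, a selection made after their values were seen; 1 gene is counted in its list but its values are not reported here.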

Additional observations from a re-analysis of the deposited data

Results flagged for a closer look

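For 5 of the 9 genes, every Klf6-deleted library lay above every Lyz2cre library without TNF and below it with TNF. The share of all genes that do so was not computed, so nothing is read from this count. The genotype difference with TNF minus that without (log2) was -3.35 for Ifi204, -3.77 for Ifi209, -2.59 for Ifi211, -4.65 for Ifi213 and -1.42 for Cgas; for these genes, chosen with both comparisons known, the difference was not tested.

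Among the named genes outside the 10, the genotype difference changed with TNF for 24 by limma's interaction contrast (adjusted p below 0.05), more negative for 19 and more positive for 5, where 25.7% and 26.5% of all genes were called. Scaled to total reads, 23 of the 24 were called, 18 more negative and 5 more positive, beside 16.6% and 41.8% of all genes, and Set moved from -0.19 to 0.0036 without a call. These genes were named for their size within each table, after their values were seen. Only those of the 31 genes named from the lists that passed the contrast are counted, so nothing is read from the count. At the Ifi200 locus the change was -3.70 for Ifi205, -4.99 for Ifi206, -5.02 for Ifi208 and -3.87 for Ifi203-ps. In the STING axis it was -0.52 for Sting1, -0.35 for Tbk1, 0.33 for Ikbke, 0.33 for Irf3, -0.71 for Trim56 and -3.74 for Usp18. Among sensors and nucleases it was -4.53 for Zbp1, -1.78 for Tlr9, -2.41 for Samhd1, 1.01 for Dnase2a and -1.82 for Adar. It was 1.68 for Enpp1, 1.55 for P2rx7, -0.19 for Set and -0.82 for Hmgb2. For the inflammasome genes it was -1.78 for Casp1, -1.13 for Gsdmd and -1.80 for Il18, and for interferon signalling -3.46 for Stat2 and -0.84 for Irf9.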

How the results depend on the processing

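Of 234 member differences recomputed (18 under 13 alternatives each), 220 kept direction and side of the threshold, 9 lost the call, 3 gained one and 2 changed sign without a call, namely Ifi207 (0.0600) and Mndal (0.0300) scaled to total reads; all of these changes were without TNF. Members called ranged from 6 to 8 without TNF and were 9 throughout with TNF. The 73 listed genes gave 40 to 46 calls without TNF, 46 to 62 with TNF and 39 to 53 for the change with TNF. Scaled to total reads, the members' median log2 response to TNF moved from 0.01 to 0.10 in Klf6-deleted and from 2.85 to 2.75 in Lyz2cre macrophages. Replicate numbers did not pair the libraries (same-number correlations of 0.15, -0.038 and 0.16 without TNF, and -0.021, -0.012 and -0.029 with TNF). With a replicate block, 7 members were called without TNF and 9 with TNF, and the listed genes gave 45, 49 and 40 calls. With 3 libraries a group, small differences such as those of Aim2 and Ifi203 without TNF depend on single libraries.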

Other observations

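Beyond the Ifi200 locus, genes with the ISRE letters GAAANNGAAA in their promoter entry can be described as a group. With the members left out, 361 such genes were tested with TNF, and 52.6% were lower and 20.2% higher in Klf6-deleted macrophages, beside 31.3% and 26.6% of the 8967 tested genes with a promoter entry. Without TNF, 39.1% of 384 such genes were higher and 25.3% lower, beside 27.3% and 29.9% of 9670 genes. These are counts of letters and of calls, with no test of the difference, and the locus neighbours that share these letters are among the genes counted. The counts use the deposited normalization only, and such shares depend on the scaling. Scaled to total reads, 60.1% of all genes were higher and 14.6% lower with TNF, and 40.3% and 18.9% without. The shares of genes with the ISRE letters were not recomputed on that scaling.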
